A study of Mus musculus with 119 samples.

Results

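Macrophages that carry the p105 mutation Nfkb1[SS/AA] were compared with macrophages that carry the TPL-2 mutation Map3k8[D270A], both after 1 h of LPS. The libraries were chosen by their labels alone: all 6 libraries of genotype Nfkb1[SS/AA] with 1 h of LPS and all 6 of genotype Map3k8[D270A] with 1 h of LPS, which makes 12 of the 119 libraries of the series. All cells were bone marrow-derived macrophages of C57BL/6(NIMR) mice, grown for 7 days with L-cell conditioned medium, rested overnight in 1% serum, and given 100 ng/ml LPS, a bacterial lipopolysaccharide that activates the receptor TLR4. Each genotype also gave 6 unstimulated libraries and 6 libraries after 0.5 h of LPS, and 6 WT libraries at each of these times are shown for reference. The ages of the mice were not stated. The study's methods call the libraries biological replicates, while the labels only number them and do not say whether each came from a separate mouse. The p-values therefore measure the spread between libraries within groups, estimated over all 119 libraries of the series and not only the 12 compared.

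Nfkb1 encodes p105, which is both the precursor of the NF-κB subunit p50 and an IκB-like protein that holds NF-κB dimers in the cytoplasm and binds TPL-2. TPL-2, the product of Map3k8, activates the kinases upstream of ERK once it is free of p105. It becomes free when TLR4 signals make the kinase IKK phosphorylate p105, which is then degraded. In Nfkb1[SS/AA] cells the serines that IKK phosphorylates are replaced by alanines, so that p105 is not degraded and TPL-2 is not released, whereas in Map3k8[D270A] cells p105 is degraded but the TPL-2 that is released has no kinase activity. Both mutations therefore remove the TPL-2 signal to ERK, and the comparison asks which transcripts differ when p105 itself also stays in place.

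The labels assign the Nfkb1[SS/AA] libraries to one experiment and the Map3k8[D270A] and WT libraries to another, and no WT libraries of the first experiment were analysed here, so genotype and experiment cannot be told apart in any comparison of Nfkb1[SS/AA] with Map3k8[D270A] or WT cells. Both mutations change residues and not the transcript, and the amounts of Nfkb1 and Map3k8 mRNA do not check the genotypes. At 1 h, Nfkb1 stood at 11.92 ± 0.13 (SD, n = 6) in Nfkb1[SS/AA] and 11.74 ± 0.09 (SD, n = 6) in Map3k8[D270A] cells, and Map3k8 at 9.66 ± 0.10 and 9.57 ± 0.03, in each case as the log2 value that the authors deposited. Replicate 2 of the Nfkb1[SS/AA] libraries at 1 h stood apart, with a root mean square deviation of 0.30 from the other replicates against 0.15 to 0.21 for the other 5, and its deviations fell with transcript length (Spearman correlation -0.38 across 11579 genes, which are not independent). The macrophage markers Csf1r and Cd68 lay between 15.16 and 15.67 in all 12 libraries. Of the 9 macrophage markers listed, 2 were lower and 4 higher in Nfkb1[SS/AA] cells at an adjusted p below 0.05 (limma). Over all genes tested these shares were 24.6% and 22.7%. Xist was near the lowest deposited values in all 12 libraries, while the Y-linked gene Ddx3y lay between 10.31 and 10.97.

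Stretches of promoters are shown first for genes on which the results turn, because p105 governs NF-κB and because the interferon gene Ifnb1 and genes that interferon induces were among the transcripts that differed. They are 60 bases long, are written 5′ to 3′ on the strand of the gene, and come from RefSeq promoters of the GRCm38.p6 build, which run from 250 bases before to 50 bases after the start of a gene. In the first group capitals mark GGGA and CC with any 4 bases between them, on either strand, a loose form of the site that NF-κB binds. Ifnb1, which was higher in Nfkb1[SS/AA] cells, has 2 matches, and the other 4 genes, which LPS raised less in Nfkb1[SS/AA] cells, have 1 each. The match of Csf2 lies 22 bases after the start of the gene, and the others lie before the start. Only genes with a match are shown, in both groups, and the shares of promoters with a match are given below.
Ifnb1, chr4:88522865-88522924, minus strand: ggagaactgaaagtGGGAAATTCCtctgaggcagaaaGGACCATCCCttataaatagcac
Ccl22, chr8:94745528-94745587, plus strand: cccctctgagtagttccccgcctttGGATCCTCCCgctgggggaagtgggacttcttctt
Sele, chr1:164048064-164048123, plus strand: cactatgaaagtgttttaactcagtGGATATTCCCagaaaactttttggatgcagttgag
Spry1, chr3:37639863-37639922, plus strand: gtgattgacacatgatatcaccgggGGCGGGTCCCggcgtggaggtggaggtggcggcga
Csf2, chr11:54249850-54249909, minus strand: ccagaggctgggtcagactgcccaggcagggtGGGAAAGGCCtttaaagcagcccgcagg

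In the second group capitals mark GAAA and GAAA with any 2 bases between them, on either strand, as in an interferon response site, in genes that were higher in Nfkb1[SS/AA] cells. The matches of Gbp3 overlap each other.
Ifit1, chr19:34640769-34640828, plus strand: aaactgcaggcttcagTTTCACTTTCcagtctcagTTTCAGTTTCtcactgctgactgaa
Ifit3, chr19:34583365-34583424, plus strand: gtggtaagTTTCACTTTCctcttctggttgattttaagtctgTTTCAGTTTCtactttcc
Rsad2, chr12:26456538-26456597, minus strand: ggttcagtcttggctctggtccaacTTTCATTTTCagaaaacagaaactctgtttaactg
Cxcl10, chr5:92349068-92349127, minus strand: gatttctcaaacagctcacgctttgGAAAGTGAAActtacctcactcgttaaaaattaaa
Gbp3, chr3:142559977-142560036, plus strand: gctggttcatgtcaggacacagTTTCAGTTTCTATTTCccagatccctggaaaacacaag
Gbp2b, chr3:142594685-142594744, plus strand: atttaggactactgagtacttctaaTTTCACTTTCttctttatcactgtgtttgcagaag

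At 1 h of LPS, 125 of 11971 genes tested were differentially expressed between the mutants, at an adjusted p below 0.05 (limma, Benjamini-Hochberg) and a log2 difference of at least 1 (1.04% of the genes). Of these, 52 were lower in Nfkb1[SS/AA] cells (0.434%) and 73 were higher (0.61%). The genes that stood lower were led by the cytokine gene Csf2 and by inducible genes such as Plat, Adm, and Tagap. Those that stood higher were led by Gbp2b, Pira1 (high in some libraries only), Saa3, Ifnb1, and genes of cholesterol synthesis. For 112 of the 125 genes the 6 and 6 libraries did not overlap, which was the case for 17.4% of all genes tested. Without overlap 8.55% of all genes were lower and 8.84% higher. The genes named below for the size of their difference were picked from those without overlap, so their lack of overlap is not a further result. At the adjusted p alone 2949 genes were lower (24.6%) and 2721 higher (22.7%), most of them by small amounts, and the median difference over all genes was -0.01. Bulk values do not tell a lower amount of RNA per cell from fewer cells of a type.

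The same comparison was made in unstimulated cells. Of the 52 genes lower at 1 h, 22 (42.3%) were also lower by at least 1 without LPS, and of the 73 higher genes 43 (58.9%) were also higher. At the adjusted p alone 27 of the 52 were lower and 63 of the 73 higher without LPS, against 17.7% and 19.2% of all genes. The 22 and 43 genes past the threshold of 1 made up 66.7% of the 33 genes lower (0.276%) and 74.1% of the 58 genes higher (0.485%) in unstimulated cells, where 91 genes were differentially expressed in all (0.76%). The comparisons at the 2 times do not share libraries, but libraries with the same replicate number deviated together at 0 and 1 h in both genotypes (correlations of 0.14 to 0.68), so the 2 comparisons were not taken as independent. After 0.5 h of LPS, 104 genes differed (0.869%), 35 of them lower (0.292%) and 69 higher (0.576%), and 24 and 43 of the genes of 1 h were among them.

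The difference in induction was tested directly, as the LPS change from 0 to 1 h in Nfkb1[SS/AA] minus that in Map3k8[D270A] cells. This LPS response differed for 38 genes (0.317%), of which 30 responded less in Nfkb1[SS/AA] cells (0.251%) and 8 more (0.0668%). Of the 30 genes, 25 were among the 380 that LPS raised by at least 1 in WT cells (3.17%), and so were 5 of the 8. A lower response needs a rise in Map3k8[D270A] cells or a fall in Nfkb1[SS/AA] cells, and a higher response the reverse. Overlap with genes that LPS raises is therefore in part built into this comparison. Of the 125 genes of 1 h, 29 were among the 38. Prex2, a regulator of Rac, was among the 30 but not among the 125: in Map3k8[D270A] cells it was 3.31, 3.41, and 3.26 in replicates 1 to 3 and 5.73, 5.44, and 5.61 in replicates 4 to 6 at 1 h, and the genotypes differed by 0.14 at 1 h and by 1.70 without LPS.

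**Figure D1:**
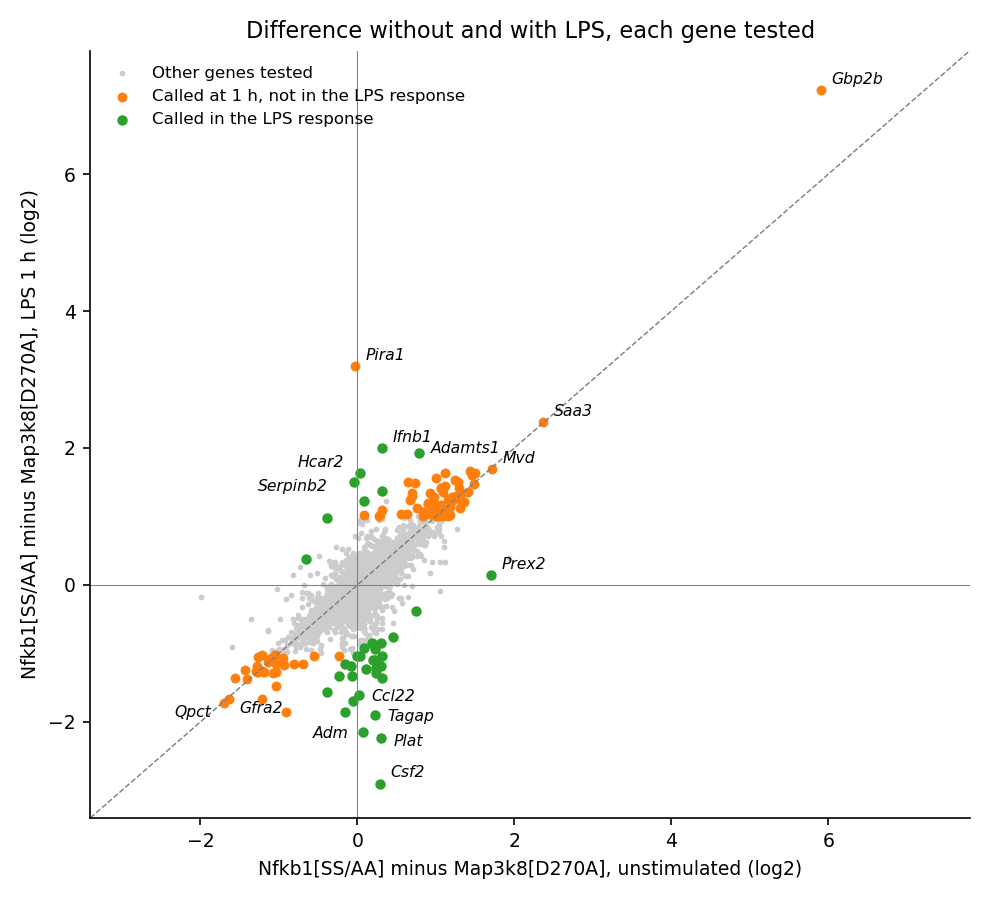
Difference in deposited log2 value between Nfkb1[SS/AA] and Map3k8[D270A] cells for each of 11971 genes, unstimulated on the x axis and after 1 h of LPS on the y axis, with the line of equal difference dashed. Csf2, Plat, Adm, Tagap, and Ifnb1 lie off the dashed line and near 0 on the x axis, Saa3, Mvd, Qpct, and Gfra2 lie on or near the line, and Gbp2b lies far out on both axes (5.91 and 7.22).

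Csf2 encodes the growth factor GM-CSF and was the gene that stood furthest below Map3k8[D270A] cells of all genes tested. Its 6 values at 1 h were 4.31, 4.51, 3.77, 4.04, 4.16, and 3.76 in Nfkb1[SS/AA] cells and 7.07, 6.75, 6.92, 7.10, 7.01, and 7.09 in Map3k8[D270A] cells. No Nfkb1[SS/AA] library reached the lowest Map3k8[D270A] library, and the difference was -2.90 ± 0.16 (SE, adjusted p = 1.00e-29, limma). WT libraries stood higher still, from 8.03 to 9.31. In unstimulated cells Csf2 was 3.60 ± 0.05 in Nfkb1[SS/AA] and 3.31 ± 0.08 (SD, n = 6) in Map3k8[D270A] cells, and its LPS response was lower by 3.19 ± 0.23 (SE, adjusted p = 1.03e-21, limma). The order WT, Map3k8[D270A], Nfkb1[SS/AA] also held for the means of Clcf1, a cytokine of the IL-6 family, at 7.59, 7.13, and 5.77. Il23a, the p19 subunit of IL-23, lay between 7.01 and 9.11, between 5.99 and 6.56, and between 4.73 and 5.26 in the same order.

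Plat encodes tissue plasminogen activator, a secreted protease. At 1 h it was 5.69, 5.59, 5.43, 6.05, 5.41, and 5.54 in Nfkb1[SS/AA] and 8.25, 7.68, 7.98, 7.75, 7.75, and 7.69 in Map3k8[D270A] libraries, which gave a difference of -2.23 ± 0.12 (SE, adjusted p = 4.62e-30, limma). The libraries did not overlap, the WT mean of 8.64 lay above the Map3k8[D270A] mean of 7.85, and the LPS response was lower in Nfkb1[SS/AA] cells by 2.54.

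Adm, which encodes the peptide hormone adrenomedullin, Tagap, a GTPase-activating protein of lymphoid and myeloid cells, and Ccl22, a chemokine for T cells, were also lower in every Nfkb1[SS/AA] library than in any Map3k8[D270A] library. Like Csf2 and Plat, they were picked from genes without overlap. Adm lay between 4.43 and 5.01 in Nfkb1[SS/AA] and between 6.48 and 7.14 in Map3k8[D270A] libraries. Tagap lay between 8.47 and 8.90 against 10.43 to 10.71, and Ccl22 between 6.72 and 7.71 against 8.53 to 9.04. The LPS response was lower in Nfkb1[SS/AA] cells by 2.22 ± 0.19 for Adm, by 2.12 ± 0.13 for Tagap, and by 1.62 ± 0.21 for Ccl22 (SE, adjusted p = 9.82e-17, 1.30e-24, and 3.10e-09, limma). The WT mean of Adm (6.89) lay beside the Map3k8[D270A] mean (6.88, adjusted p = 0.962, limma) and that of Tagap (10.85) near 10.59, whereas that of Ccl22 (9.43) lay above 8.78 (adjusted p = 8.63e-04, limma). Gpr183, a receptor that guides the migration of leukocytes, was 9.58 ± 0.16 without and 9.32 ± 0.15 (SD, n = 6) with LPS in Nfkb1[SS/AA] cells, while in Map3k8[D270A] cells it went from 9.64 ± 0.10 to 11.01 ± 0.28.

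Other genes with a lower LPS response, named here after their values were seen, were Sele, the adhesion molecule E-selectin (-1.47), Mir155hg, the host transcript of miR-155 (-1.51), Il4i1, an amino acid oxidase (-1.09), and Adora2a, an adenosine receptor (-1.33). Hspa1b, an HSP70 chaperone, also had a lower LPS response (-1.18). It is nearly identical to Hspa1a, and how the reads divide between them is uncertain. Over the genes lower at 1 h, the WT mean lay within 33.3% of the gap between the mutants from the Map3k8[D270A] mean for 28 of 52, further beyond that mean for 8, midway for 10, and within 33.3% of the gap from the Nfkb1[SS/AA] mean for 6.

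**Figure D2:**
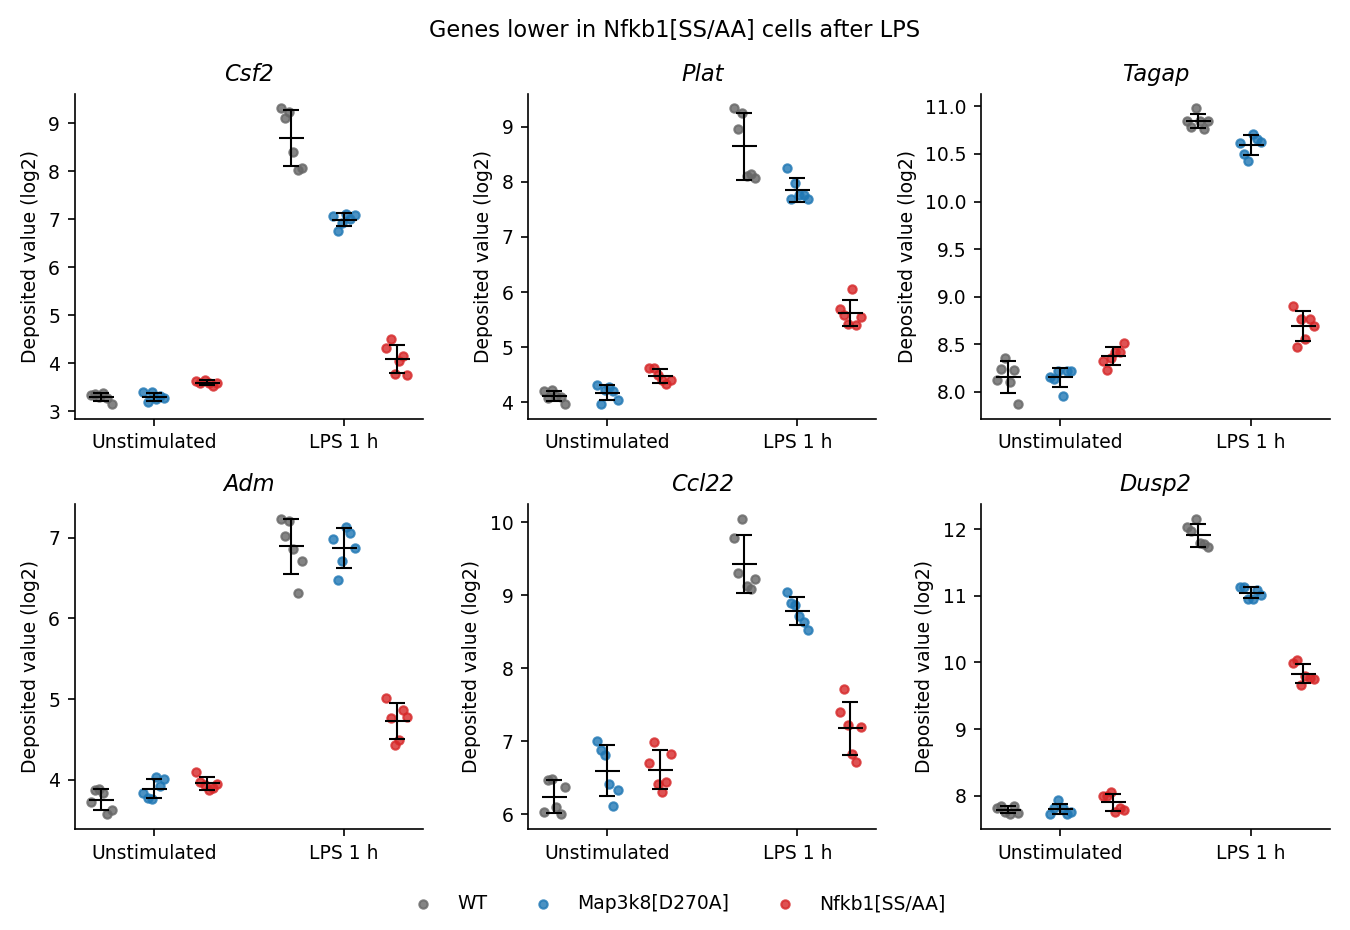
Deposited log2 values of 6 genes in each library of WT, Map3k8[D270A], and Nfkb1[SS/AA] cells, unstimulated and after 1 h of LPS, with the mean and SD as bars (n = 6). In each of the 6 genes all Nfkb1[SS/AA] libraries lie below all Map3k8[D270A] libraries at 1 h, as Csf2 does with 4.51 at most against 6.75 at least.

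The NF-κB letters were found in 10 of the 21 promoters available for the 30 genes that responded less (47.6%), in 26.3% of the 9215 promoters of genes tested, and in 20.5% of all 27025 promoters of the same length. They were also in 32.7% of the promoters of genes higher at 1 h, and in 54.5% and 46.7% of those of the NF-κB feedback and ERK feedback lists, whose medians were -0.02 and 0.01. TGANTCA on either strand, the site of AP-1, was in 2 of the 21 (9.52%) and in 5.05% of the promoters of genes tested. These shares are over the whole windows of 300 bases, of which the stretches printed above are parts, and were not tested.

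Genes of the NF-κB pathway itself were tested next. Of 17 genes of NF-κB and its inhibitors none was differentially expressed at 1 h by the threshold of 1 (1.04% of all genes were), and 3 were lower and 3 higher at the adjusted p alone, against 24.6% and 22.7% of all genes. Nfkbia, which encodes IκBα and is induced by NF-κB, was 14.51, 14.67, 14.42, 14.45, 14.53, and 14.55 in Nfkb1[SS/AA] and 14.97 to 15.07 in Map3k8[D270A] libraries. The groups did not overlap, and the difference of -0.50 ± 0.05 (SE, adjusted p = 1.02e-14, limma) was 0.00 without LPS. The subunit genes Rela and Relb were higher by 0.31 and 0.26, and Rel was lower by 0.24, with replicate 2 of Nfkb1[SS/AA] cells at 10.09 and the other 5 between 11.16 and 11.33. In the 13 genes of NF-κB feedback, 2 were lower and 3 higher at the adjusted p alone, among them Tnfaip3, which encodes the deubiquitinase A20, at -0.26, and Tollip, an adaptor of TLR signals, at 0.38.

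The 16 genes of the TPL-2 to ERK cascade gave differences from -0.22 (Rps6ka3, which encodes the kinase RSK2) to 0.20. None reached the threshold of 1 (1.04% of all genes did), and 4 were lower and 2 higher at the adjusted p alone, against 24.6% and 22.7%. Of the 16 feedback inhibitors of ERK tested, 2 were lower by at least 1 (0.434% of all genes were): Dusp2, a nuclear MAP kinase phosphatase, and Spry1, a Sprouty protein. At the adjusted p alone 6 were lower and 6 higher, against 24.6% and 22.7% of all genes, with a median of 0.01. Dusp2 was 9.66 to 10.03 in Nfkb1[SS/AA] and 10.95 to 11.14 in Map3k8[D270A] libraries, and its difference of -1.22 ± 0.11 (SE, adjusted p = 2.04e-16, limma) was 0.11 without LPS. Spry1 differed by -1.16 and its LPS response by -1.42. Dusp5 and Dusp6, which act on ERK, were lower by 0.98 and 0.54 and were so without LPS too (-0.94 and -0.49), whereas Dusp1, which acts mainly on p38 and JNK, was higher by 0.53 with LPS and stood at -0.12 without.

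ERK induces the immediate early genes through the factors Elk1, Elk4, and Srf. Of 28 tested, 8 were lower and 9 higher at the adjusted p alone, against 24.6% and 22.7% of all genes. None reached the threshold of 1, which 1.04% of all genes did. Egr1, the zinc finger factor most used as a readout of this pathway, was 8.59, 8.36, 8.16, 8.47, 8.23, and 8.21 in Nfkb1[SS/AA] and 8.14, 8.28, 8.07, 7.78, 8.45, and 8.19 in Map3k8[D270A] cells, against 11.19 to 11.62 in WT cells. The mutants overlapped, and their difference of 0.18 ± 0.14 (SE) did not pass the test (adjusted p = 0.307, limma). Egr3 was lower in Nfkb1[SS/AA] cells by 0.91 and Nr4a1 by 0.88, with no overlap, and Fos by 0.46. Egr3 stood apart without LPS as well, by -1.60, and its LPS response was higher in Nfkb1[SS/AA] cells by 0.69 ± 0.19 (SE, adjusted p = 0.0117, limma). WT cells were above both mutants for each of these genes, at means of 10.03 for Egr3, 10.71 for Nr4a1, and 11.54 for Fos. Nr4a3 was the only one of the 28 genes whose LPS response was lower by at least 1 (-1.04), against 0.251% of all genes. At the adjusted p alone the LPS response was lower for 2 of the 28 and higher for 8, against 505 and 266 of all 11971 genes. Without LPS 8 were lower and 1 was higher at the adjusted p, against 17.7% and 19.2% of all genes. The medians of the list were 0.12 for the LPS response and -0.12 without LPS. Klf4, Klf2, Atf3, and Phlda1 were higher at 1 h by 0.76, 0.35, 0.69, and 0.42.

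Cytokine genes moved in both directions. Of 23 tested, 3 were lower by at least 1 (Csf2, Clcf1, Il23a) and 1 was higher (Osm), against 0.434% and 0.61% of all genes. At the adjusted p alone 8 were lower and 4 higher, against 24.6% and 22.7%. Il10, an inhibitory cytokine, was 8.51 ± 0.35 against 9.25 ± 0.38 (SD, n = 6), with overlapping libraries and a difference of -0.74 (adjusted p = 9.88e-04, limma). Il12b, the p40 subunit, was lower by 0.59 (adjusted p = 0.0189, limma), also with overlap. Tnf was 16.06, 16.23, 15.97, 16.03, 16.07, and 16.16 in Nfkb1[SS/AA] and 15.64 to 15.75 in Map3k8[D270A] cells. It thus stood higher without overlap, by 0.40 ± 0.08 (SE, adjusted p = 2.27e-05, limma), and nearer to the WT mean of 16.26. Among 19 chemokine genes 7 were lower and 5 higher at the adjusted p alone, beside the same 24.6% and 22.7%. Ccl22, Cxcl3, and Cxcl1 were lower by 1.60, 0.65, and 0.49, and Cxcl10, Ccl4, Cxcl2, and Ccl3 were higher by 1.35, 0.96, 0.70, and 0.55.

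**Figure D3:**
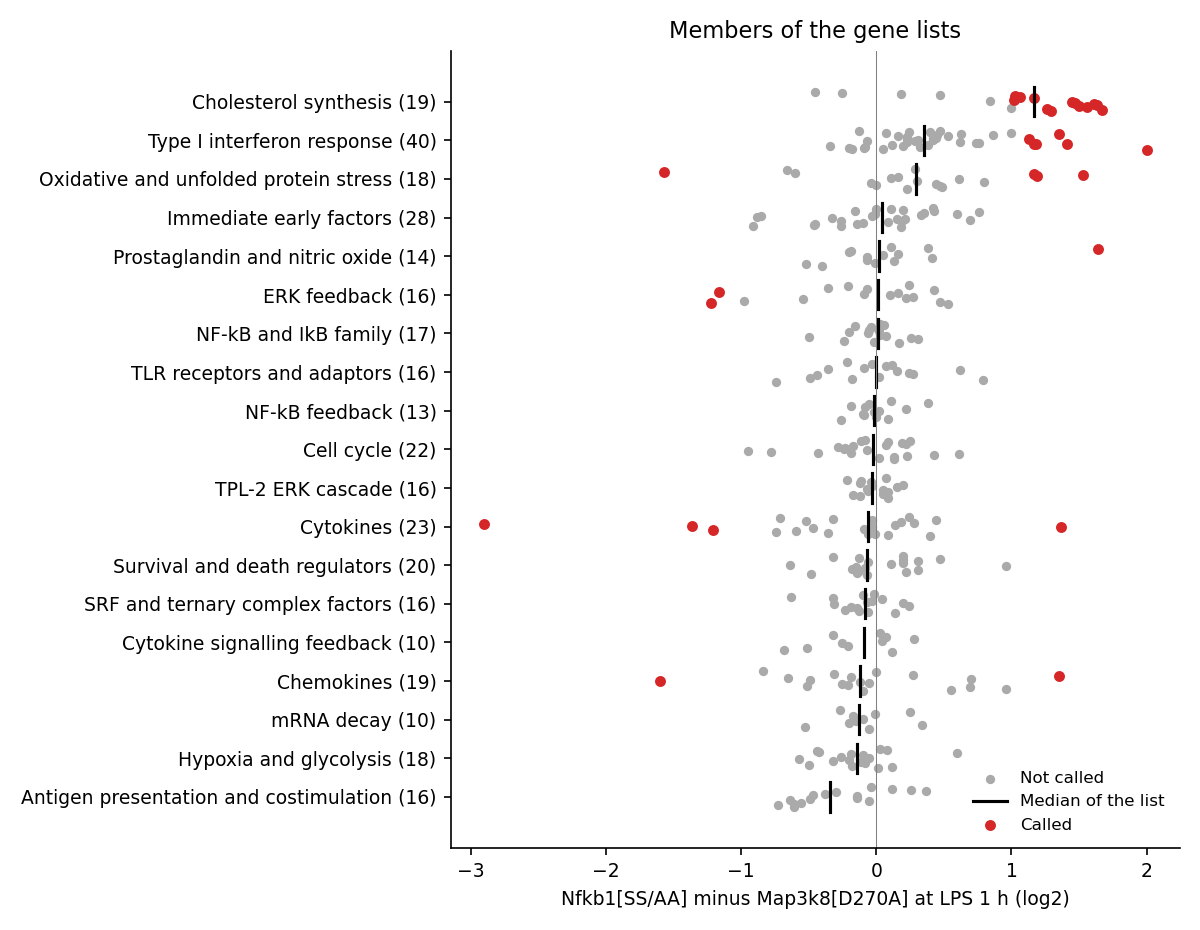
Difference in deposited log2 value at 1 h of LPS for each tested member of the 19 gene lists, ordered by the median of the list, with the number of members in parentheses and differentially expressed members in red. Cholesterol synthesis has the highest median, 1.17, with 13 of 19 members in red, while the NF-κB, TPL-2, and immediate early lists lie around 0.

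Ifnb1, which encodes interferon-β, was higher in Nfkb1[SS/AA] than in Map3k8[D270A] cells, and higher in these than in WT cells. Its values at 1 h were 10.55, 10.84, 10.44, 11.57, 11.61, and 12.22 in Nfkb1[SS/AA], 9.16, 9.32, 9.63, 8.72, 9.13, and 9.27 in Map3k8[D270A], and 7.51 to 8.40 in WT libraries. No group overlapped another. The mutants differed by 2.00 ± 0.25 (SE, adjusted p = 5.77e-11, limma), against 0.32 without LPS, and the LPS response differed by 1.68 ± 0.35 (SE, adjusted p = 3.26e-04, limma). The promoter printed above holds a match to the NF-κB letters 116 and 93 bases before the start. Ifna2, an interferon-α gene, was low in Map3k8[D270A] cells (1.52 to 2.12) and at 2.21 to 4.03 in Nfkb1[SS/AA] cells, with an LPS response higher by 1.13. It belongs to a family of near-identical genes, and the division of reads among them is uncertain.

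Of 40 genes of the type I interferon response, 6 were higher by at least 1 and none was lower, against 0.61% and 0.434% of all genes. At the adjusted p alone 19 were higher and 2 lower, against 22.7% and 24.6%. The median difference over the list was 0.35, against -0.01 over all genes. Ifit2, Gbp3, Ifit1, Ifit3, and Rsad2, which restrict viruses and intracellular microbes, were higher by 1.41, 1.35, 1.18, 1.17, and 1.13. They were higher without LPS too, by 1.07, 0.69, 0.90, 0.93, and 0.76. Over the list without LPS, 18 genes were higher and 0 lower at the adjusted p, against 19.2% and 17.7% of all genes. The median of the list was 0.33 without LPS, and its median difference in LPS response was -0.01. Ifnb1 was the only one of the 40 whose LPS response was higher by at least 1, against 0.0668% of all genes. The letters of the interferon response site were in 11 of the 52 promoters available for the genes higher at 1 h (21.2%), in 0 of 31 for the genes that were lower, in 3.2% of promoters of genes tested, and in 3.49% of all promoters.

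The interferon genes were not evenly high over the Nfkb1[SS/AA] libraries. Ifit2 was 12.70, 12.42, and 12.50 in replicates 1 to 3 and 14.46, 13.39, and 13.83 in replicates 4 to 6, against 11.46 to 12.28 in Map3k8[D270A] libraries. The median of the list over the Map3k8[D270A] mean was 0.11, 0.22, and -0.04 in replicates 1 to 3 and 1.00, 0.31, and 0.54 in replicates 4 to 6, so replicates 1 and 3 did not stand above the Map3k8[D270A] libraries, which lay between -0.12 and 0.11. With replicates 1 to 3 alone 2 genes of the list were higher by at least 1, with replicates 4 to 6 alone 9, and without replicate 4 the count was 3. Over all 11971 genes the counts higher by at least 1 moved the same way, to 48 with replicates 1 to 3, 104 with replicates 4 to 6, and 60 without replicate 4. The median difference over the list, 0.35 with all libraries, was 0.10 with replicates 1 to 3, 0.63 with replicates 4 to 6, and 0.22 without replicate 4. With replicates 1 to 3 alone the difference at 1 h was 0.73 for Ifit2 (adjusted p = 0.0598, limma) and 0.62 for Ifit1, and without replicate 4 that of Ifit1 was 0.97. The LPS response differed with replicates 1 to 3 alone by 1.06 for Ifnb1 (adjusted p = 0.102, limma), and by 0.53 for Ifna2 (adjusted p = 0.131, limma), and without replicate 4 by 0.93 for Ifna2.

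**Figure D4:**
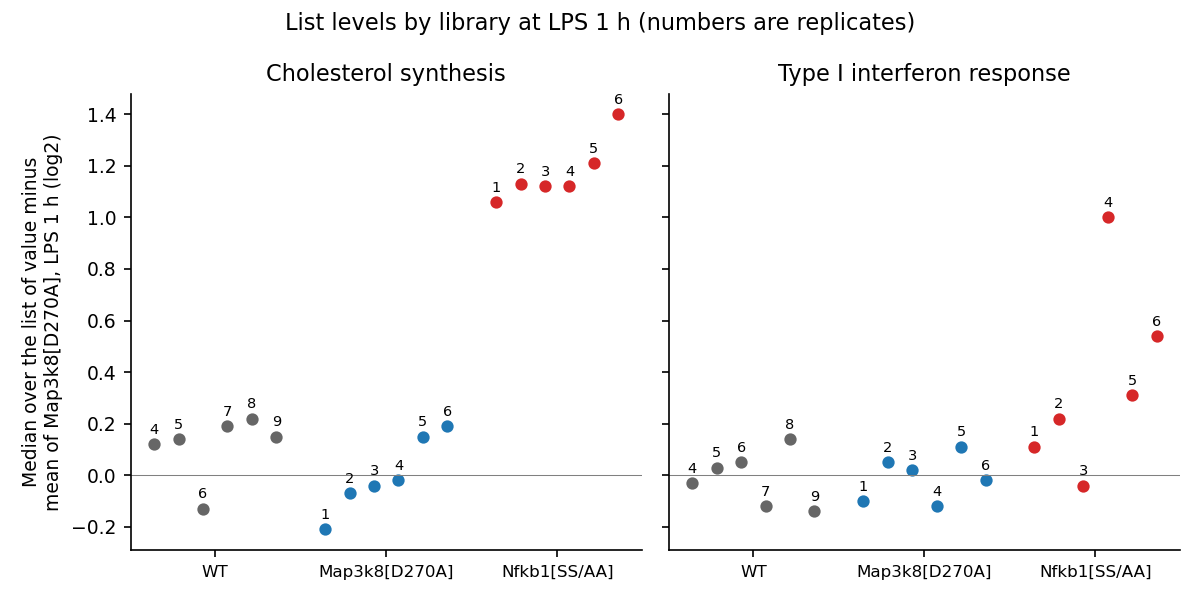
Median over the members of 2 gene lists of the log2 value minus the mean of Map3k8[D270A] cells at 1 h of LPS, one point per library with its replicate number. For cholesterol synthesis the 6 Nfkb1[SS/AA] libraries lie between 1.06 and 1.40, above all others, and for the interferon response they run from -0.04 to 1.00 and overlap the other groups.

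A smaller set of genes was low in Map3k8[D270A] cells and near WT in Nfkb1[SS/AA] cells. Hcar2, a receptor for hydroxybutyrate and niacin, was 7.96, 7.76, 7.66, 8.59, 8.02, and 8.37 in Nfkb1[SS/AA] and 6.29, 6.58, 6.73, 6.30, 6.48, and 6.23 in Map3k8[D270A] cells after LPS, with WT libraries between 7.07 and 8.37. Its LPS response was higher in Nfkb1[SS/AA] cells by 1.59 ± 0.20 (SE, adjusted p = 1.68e-09, limma). Serpinb2, the plasminogen activator inhibitor PAI-2, was 5.36 to 6.68 in Nfkb1[SS/AA], 4.33 to 4.91 in Map3k8[D270A], and 5.71 to 6.79 in WT libraries, and its LPS response was higher by 1.54 ± 0.19 (SE, adjusted p = 1.56e-09, limma). Flrt3, an adhesion protein of the cell surface, had the same order of means (7.97, 6.89, and 7.78), although its libraries overlapped. These 3 were the only genes of the 73 higher ones whose WT mean lay within 33.3% of the gap from the Nfkb1[SS/AA] mean. For 59 of the 73 it lay that near the Map3k8[D270A] mean.

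Osm, which encodes oncostatin M, a cytokine of the IL-6 family, was 9.19 to 9.44 in Nfkb1[SS/AA], 7.59 to 8.12 in Map3k8[D270A], and 8.49 to 8.95 in WT libraries, so that the mutants lay on opposite sides of WT. The mutants differed by 1.37 ± 0.09 (SE, adjusted p = 1.55e-23, limma). Irg1, which makes the metabolite itaconate, lay at 14.07 ± 0.38 against 12.44 ± 0.31 (SD, n = 6) and around the WT mean of 13.19, and Ets2, an ETS factor named after its value was seen, had an LPS response higher by 1.37 ± 0.11 (SE, adjusted p = 3.48e-19, limma). Adamts1, a secreted metalloprotease, was 6.82 to 7.71 in Nfkb1[SS/AA] and 4.59 to 5.91 in Map3k8[D270A] libraries, near the WT mean of 4.93. Its LPS response was higher by 1.15, and by 0.85 with Nfkb1[SS/AA] replicates 1 to 3 alone (adjusted p = 0.0643, limma).

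**Figure D5:**
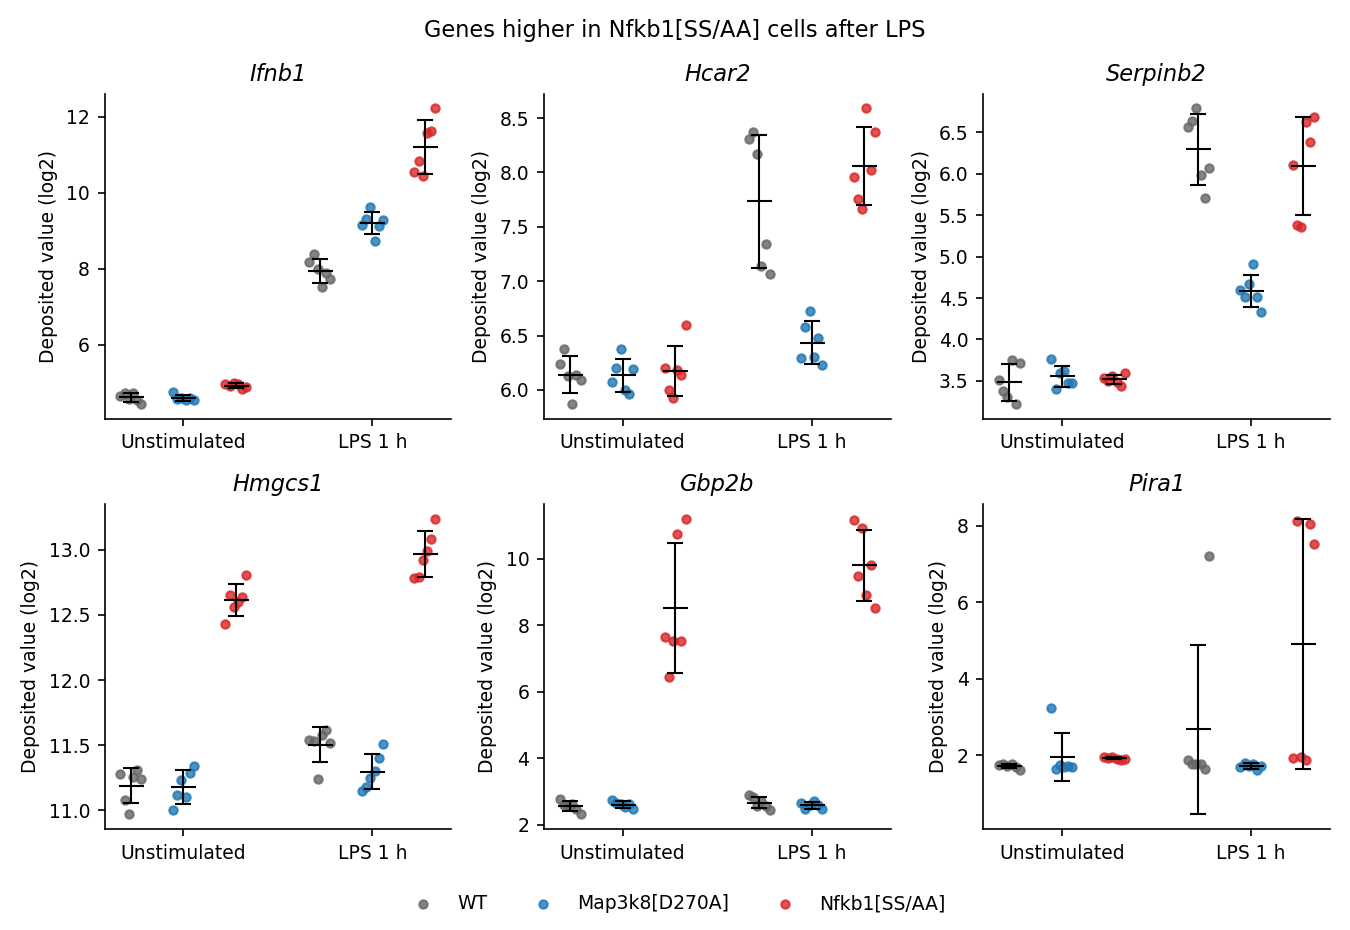
Deposited log2 values of 6 genes in each library, drawn as in the plot of genes that were lower (mean and SD as bars, n = 6). Ifnb1, Hcar2, and Serpinb2 separate the mutants only after LPS, Hmgcs1 and Gbp2b do so at both times, and Pira1 is high in 3 of the 6 Nfkb1[SS/AA] libraries and in 1 WT library at 1 h.

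Genes of cholesterol synthesis were mostly higher in Nfkb1[SS/AA] cells. Of 19 tested, 13 were higher by at least 1 at 1 h and 17 at the adjusted p alone, against 0.61% and 22.7% of all genes, and the median was 1.17. Hmgcs1, which makes HMG-CoA, was 12.78, 12.79, 12.92, 12.99, 13.08, and 13.24 in Nfkb1[SS/AA] and 11.15 to 11.51 in Map3k8[D270A] libraries, a difference of 1.67 ± 0.08 (SE, adjusted p = 2.94e-33, limma). Fdft1 and Fdps, which form squalene and its precursor, were higher by 1.63 and 1.61, and Insig1, an inhibitor of the sterol sensor, by 1.56. Sqle, which oxidizes squalene, was higher by 1.26. Mvd, a further enzyme of the pathway, was 9.91 ± 0.29 against 8.22 ± 0.12 (SD, n = 6).

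The group was high without LPS too. In unstimulated cells 8 of the 19 were higher by at least 1, against 0.485% of all genes. At the adjusted p alone 17 were higher and 1 was lower, against 19.2% of all genes higher and 17.7% lower. The median was 0.98. No gene of the list differed in its LPS response by at least 1 (median 0.11), where 0.317% of all genes did. Hmgcs1 was 12.62 ± 0.12 against 11.18 ± 0.13 (SD, n = 6) before LPS. The export gene Abcg1, which is induced when sterols are high, was the only member lower at the adjusted p at 1 h, by 0.45, and differed by -0.20 without LPS (adjusted p = 0.0623, limma). At 1 h the count of genes higher by at least 1 was 11 of 19 with Nfkb1[SS/AA] replicates 1 to 3 and 14 with replicates 4 to 6. WT means lay near Map3k8[D270A] means, as for Hmgcs1 (11.50 and 11.30).

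The stress list gave 3 genes higher and 1 lower of 18 by at least 1, against 0.61% and 0.434% of all genes, and 11 higher and 3 lower at the adjusted p alone, against 22.7% and 24.6%. The higher ones were Chac1 (1.53), Trib3 (1.19), and Asns (1.17), which are targets of the factor ATF4 that are induced when amino acids are short, and the lower one was Hspa1b (-1.57). Chac1 was 7.08 ± 0.33 against 5.55 ± 0.25 (SD, n = 6), and the 3 higher genes were high without LPS too, by 1.25, 0.90, and 1.05. Phgdh, the first enzyme of serine synthesis, which was named after its value was seen, was higher by 1.60 and without LPS by 1.46. Fabp4 and Fabp5, fatty acid binding proteins, also named afterwards, were higher by 1.36 and 1.42, and without LPS by 1.09 and 1.30.

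Saa3, an acute-phase protein, was 7.69, 8.01, 7.41, 8.33, 8.13, and 8.42 in Nfkb1[SS/AA] and 5.51 to 5.79 in Map3k8[D270A] libraries, a difference of 2.38 that was 2.37 without LPS. Hp and Slpi, which encode haptoglobin and a secreted protease inhibitor of neutrophils and macrophages, were higher by 1.29 and 1.24. Markers of neutrophils moved with them: 5 of 7 tested were higher at the adjusted p, against 22.7% of all genes, S100a9 by 1.03, and the log2 of the summed level of the 10 listed genes ran from 7.37 to 8.40 in Nfkb1[SS/AA], from 6.46 to 7.64 in Map3k8[D270A], and from 6.57 to 7.83 in WT libraries. The defining genes Ly6g and Elane stayed near -0.2 and -0.1 in all of these libraries, and a part of neutrophils in the results was not tested. Camp, counted among the higher genes, was 2.39 to 2.70 in Nfkb1[SS/AA] and 2.10 to 2.34 in Map3k8[D270A] libraries. These values are below the filter of 10 on the linear scale, which Camp passed through other libraries of the series. The summed level of the macrophage list, 18.91 to 19.26 against 18.66 to 18.82, also differed, with Lyz2 higher by 0.59 and Adgre1 and Itgam lower by 0.26 and 0.34. Those of the dendritic, stromal, B, T or NK, mast, and erythroid cell lists overlapped between the mutants. At the adjusted p alone 1 of 4 dendritic genes tested was lower and 2 were higher. The 1 mast cell gene tested was lower, and of 2 erythroid genes 1 was lower and 1 higher. No stromal, B, or T or NK cell gene passed. Over all genes 24.6% were lower and 22.7% higher.

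Genes lower at both times included Qpct, a glutaminyl cyclase that acts on chemokines, at 8.92 to 9.21 in Nfkb1[SS/AA] against 10.56 to 10.85 in Map3k8[D270A] libraries. Its difference was -1.72 ± 0.06 with and -1.70 without LPS (SE, adjusted p = 4.46e-47 at 1 h, limma), and WT cells (10.44) stood near Map3k8[D270A] cells. Tnfrsf10b, a death receptor, was lower by 1.66 and without LPS by 1.21. The chemokine receptors Ccr2 and Cx3cr1, the lectin Siglec1, and the IL-33 receptor Il1rl1, all named after their values were seen, were lower by 1.15, 1.12, 1.27, and 1.26 at 1 h and by 1.04, 1.14, 1.04, and 1.29 without LPS. Of the 16 genes of antigen presentation and costimulation, 9 were lower and 2 higher at the adjusted p alone, against 24.6% and 22.7% of all genes, with a median of -0.34. The median was -0.37 with Map3k8[D270A] replicates 1 to 3 alone, where 4 genes of the list were lower by at least 1. It was -0.16 with replicates 4 to 6 alone, where none of the list was. Of all 11971 genes tested, 69 were lower by at least 1 with replicates 1 to 3 alone and 51 with replicates 4 to 6 alone. The class II genes H2-Ab1, H2-Eb1, and H2-Aa were lower by 0.73, 0.61, and 0.61, with the replicates of H2-Ab1 overlapping (SD 0.52 and 0.54).

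Some of the genes that differed lie near a mutated gene. Gbp2b, a guanylate binding protein, gave the highest value of the comparison, with 11.16, 9.47, 10.92, 8.90, 9.82, and 8.52 in Nfkb1[SS/AA] and 2.46 to 2.71 in Map3k8[D270A] libraries, and WT libraries at 2.43 to 2.89. The difference was 7.22 ± 0.37 at 1 h (SE, adjusted p = 8.11e-32, limma) and 5.91 without LPS. Gbp2b (chr3:142594816-142619179, GRCm38) starts 7.01 Mb from Nfkb1 (chr3:135584655-135691969). Within 10 Mb of Nfkb1, 3 of 61 genes tested were differentially expressed at 1 h (4.92%, against 1.04% of all genes), namely Gbp2b, Gbp3, and Sgms2, and all were higher in Nfkb1[SS/AA] cells and apart from WT cells by 7.13, 1.43, and 1.08. Within 10 Mb of Map3k8 on chromosome 18 it was 4 of 35 (11.4%, against the same 1.04%), namely Ankrd29, Cables1, and Abhd3, lower by 1.37, 1.27, and 1.02, and Zeb1, higher by 1.04. For these 4 the Map3k8[D270A] mean differed from that of WT by 1.36, 1.26, 0.95, and -0.63. The part of position in these values was not tested.

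Gfra2, a receptor of the GDNF family, and Phyhip, on chromosome 14, were also lower in Nfkb1[SS/AA] than in Map3k8[D270A] cells while WT cells stood beside Nfkb1[SS/AA] cells. Gfra2 was 2.96 to 3.46 in Nfkb1[SS/AA], 4.18 to 5.64 in Map3k8[D270A], and 3.11 to 3.50 in WT libraries. With Ankrd29, Cables1, Abhd3, and the transcript Gm8615 they were the 6 lower genes whose WT mean lay beside the Nfkb1[SS/AA] mean. Gm8615 was high in Map3k8[D270A] replicates 1 to 3 (5.79 to 5.93) and not in replicates 4 to 6 (2.93 to 3.08).

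Pira1, a paired immunoglobulin-like receptor, was called at 1 h with values of 1.94, 8.12, 1.96, 1.88, 8.05, and 7.54 in Nfkb1[SS/AA] libraries. Only 3 of the 6 were high, against 1.61 to 1.81 in Map3k8[D270A] libraries and 1 high WT library at 7.21, and the difference of 3.20 ± 0.87 (SE, adjusted p = 0.00154, limma) passed the test, whereas that of the LPS response did not, at a similar size and a larger error (3.23 ± 1.23, adjusted p = 0.11, limma). With Nfkb1[SS/AA] replicates 1 to 3 alone Pira1 did not pass the test at 1 h either (2.29, adjusted p = 0.0636, limma). Pira1 has near-identical neighbours, and the division of reads among them is uncertain.

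In the remaining lists no gene reached the threshold of 1 except Irg1, where 1.04% of all genes did. Among 16 TLR receptors and adaptors 6 were lower and 6 higher at the adjusted p alone, with Tlr2 at 0.79 and Tlr1 at -0.74. The mRNA decay list had 6 lower and 2 higher of 10, with Zfp36l1 at -0.53, and the prostaglandin and nitric oxide list 3 lower and 5 higher of 14, with Ptgs2, which encodes COX-2, at -0.52 and lowest in the Nfkb1[SS/AA] replicate 2 that stood apart (10.17). Survival and death regulators had 5 lower and 7 higher of 20, with Gadd45a at 0.96, the SRF list 7 lower and 3 higher of 16, with Cnn2 at -0.63, and cytokine signalling feedback 3 lower and 1 higher of 10, with Socs2 at -0.68. The cell cycle list had 6 lower and 1 higher of 22, with Ccnd2 at -0.95, and hypoxia and glycolysis 8 lower and 2 higher of 18, with Ndrg1 at 0.60. These shares can be read against 24.6% lower and 22.7% higher over all genes.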

How the data were processed

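RNA-seq of mouse bone marrow-derived macrophages was used. The values that the authors deposited are on a log2 scale, 1 per gene and library, and normalized across libraries. The submitters' processing notes name STAR 2.5.1b, RSEM 1.2.29, DESeq2 1.10.1, and mm10, and the transformation behind the values was not stated. They are not counts, so depth is unknown, intervals from counts could not be computed, and whether a difference of 1 stands for exactly a 2-fold change is not known. Values run from -2.40 to 19.81 over 18098 genes and 119 libraries, with 1 value above a limit of 25 set to missing. No 2 libraries held identical values.

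Groups, taken from the labels, were compared with limma 3.58.1 (R 4.3.3), by its moderated test on group means over all libraries, for the 11971 genes that reached 10 on the linear scale in 3 or more libraries, with Benjamini-Hochberg adjustment over them. Genes were counted where the adjusted p was under 0.05 and the difference 1 or more on the log2 scale. The smallest difference counted and the largest one left out both round to 1.00. The script was tested on simulated data. Replicate numbers did not pair the genotypes (correlations of deviations -0.17 to 0.25, 2 of 6 over 0.1). They paired 0 and 1 h within a genotype (0.14 to 0.68, every pair over 0.1), which comes from the data and the shared numbers.

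Named genes were, among differentially expressed genes whose libraries did not overlap, the 10 with the largest difference in each direction and the 5 in each direction with the largest difference in LPS response. Added were up to 4 differentially expressed members of each of 19 lists (or else the member with the largest difference) and Nfkb1, Map3k8, Egr1, Egr3, Nr4a1, Fos, Ifnb1, Il10, Il12b, and Tnf, which gave 57 in all, of which 1 is not reported here. Others were named after their values were seen. The comparison, members, and lists were chosen with earlier results of these data known. Positions and promoters are those of RefSeq, GRCm38.p6 (positions for 11472 genes by symbol and 456 by synonym, promoters for 9215), and transcript lengths those of GENCODE. Alternatives covered filters, thresholds, scaling, the variance model, replicate subsets, and leaving out each library.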

Additional observations from a re-analysis of the deposited data

Results flagged for a closer look

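The LPS response from 0 to 1 h differed between the mutants, by the test of that difference (limma), for each gene that follows, given as the change in Nfkb1[SS/AA] minus that in Map3k8[D270A] cells on the log2 scale. It was -3.19 for Csf2, -2.54 for Plat, -2.22 for Adm, and -2.12 for Tagap. It was 1.68 for Ifnb1, 1.59 for Hcar2, 1.54 for Serpinb2, 1.15 for Adamts1, and 1.13 for Ifna2.

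Among 112 sets of 6 libraries (56 named genes in both mutants at 1 h), 1 held a library far from the others, where chance alone gives about 1 in 20. Zfp36l1 in Nfkb1[SS/AA] replicate 1 was 13.04, the highest of its 6. The screen covered only the named genes, part of which were chosen because their libraries did not overlap. It left out Rel, whose Nfkb1[SS/AA] replicate 2 stood far below the other replicates.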

How the results depend on the processing

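Counts of differentially expressed genes moved by more than 1.5 times mainly with the threshold. With the natural log of 2 (0.693) in place of 1, the counts were 317 at 1 h (154 lower and 163 higher), 230 unstimulated (91 and 139), 267 at 0.5 h (93 and 174), and 90 in the LPS response (62 and 28). At the adjusted p alone they were 5670 (2949 and 2721), 4412 (2116 and 2296), 4724 (2272 and 2452), and 771 (505 and 266). With subsets of Nfkb1[SS/AA] replicates, an alternative added once the data had been seen, 51 genes were lower and 48 higher at 1 h for replicates 1 to 3, and 146 genes differed without LPS for replicates 4 to 6, 41 of them lower. The cause was not tested. Leaving out 1 library gave 113 to 137 genes at 1 h (50 to 58 lower, 60 to 80 higher), 73 to 99 unstimulated (28 to 36 lower, 40 to 64 higher), 97 to 116 at 0.5 h (31 to 39 lower, 64 to 77 higher), and 35 to 39 in the LPS response (26 to 31 lower, 7 to 11 higher). Without Nfkb1[SS/AA] replicate 2, which stood apart, 58 genes were lower and 73 higher at 1 h, and 117 of the 125 genes remained. With Map3k8[D270A] replicates 1 to 3 or 4 to 6 only, 147 and 134 genes differed, with 107 and 104 of the 125 among them. With the replicate number as a block across the genotypes 51 genes were lower and 73 higher at 1 h, and with a replicate block within each genotype 28 and 8 differed in the LPS response; neither changed a count by 1.5 times. Of the 10 values of named genes that fell short of the threshold under an alternative, all are given beside their genes except that of Ifna2 at 1 h with replicates 1 to 3 (0.63) and that of Pira1 with the compared libraries alone (adjusted p = 0.0512, limma). No named gene changed direction under the alternatives run, and 46 of 56 kept their call at 1 h under every one other than the 2 thresholds. A pseudocount was not tried, since the values were deposited on a log2 scale. The unknown depth limits what can be said of genes with low values, such as Ifna2 and Pira1.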
